A study of Mus musculus with 10 samples.

Results

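The dystrophin glycoprotein complex was followed in the gastrocnemius (GAS) of diet-induced obese (DIO) mice through 8 listed genes, namely Dmd, Utrn, Dag1, Sgca, Sgcb, Sgcd, Sspn and Dtna, among 21098 genes in the count table. The members were listed by symbol, with earlier results of these data known. The groups compared were both of wild-type male C57BL/6J mice. All of them had been given the high-fat diet D12492i from 9 weeks of age for 9 weeks, and they stayed on the high-fat diet during treatment. The 5 mice of the ASO group then received RES-010, an anti-miR-22 antisense oligonucleotide (ASO) with LNA modifications, at 10 mg/kg once a week for 14 weeks under the skin, and the 5 control (CTRL) mice received saline in the same volumes. In the weights listed by the paper, several CTRL mice were lighter than every ASO mouse on the first day. The part of this difference in the counts was not tested. No lean, untreated or dystrophic mice were part of the comparison, and the miRNA itself was not counted in these libraries. Stranded poly(A) RNA libraries were sequenced, and read pairs were counted only on segments that cover up to 500 bp at the end of annotated 3′UTRs. The library totals were 1606909 to 2116720 counts in CTRL and 2239186 to 2632560 counts in ASO, so that every ASO library was deeper than every CTRL library.

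The complex spans the membrane of the muscle fiber and joins the actin cytoskeleton to laminin in the basement membrane. Dystrophin (Dmd) binds actin at one end and β-dystroglycan at the other, and utrophin (Utrn) is its autosomal relative, which in adult muscle is concentrated at the neuromuscular junction. Dystroglycan (Dag1) is cut into an α subunit, which carries the laminin-binding glycan, and a β subunit in the membrane. The sarcoglycans (Sgca, Sgcb, Sgcd) and sarcospan (Sspn) form a subcomplex beside dystroglycan, and α-dystrobrevin (Dtna) binds dystrophin and the syntrophins inside the cell. Loss of dystrophin causes Duchenne muscular dystrophy, and loss of a sarcoglycan causes a limb-girdle muscular dystrophy.

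The agent under study is directed against miR-22-3p, whose mature RefSeq sequence is shown with its seed (bases 2 to 8) in capitals because the seed defines the letters that were sought in the members. The sequence is encoded at chr11:75354598-75354619 on the plus strand of GRCm39. The single match found in the 3′UTRs searched for the members lies in Dag1 at chr9:108081971-108081992 on the minus strand. Its 22 bases are shown with the match to the seed in capitals.
miR-22-3p: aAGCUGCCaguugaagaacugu
Dag1 site: tcatggtagagaagGGCAGCTc

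The letters GGCAGCT, the complement of the seed, were sought on the transcribed strand in the 3′UTR of the canonical GENCODE transcript of each member. They were present once in Dag1, whose 3′UTR has 2625 bases, and were not found in the other 7 members, whose 3′UTRs have between 308 bases (Sgca) and 3729 bases (Sspn). The ends on which Dtna was counted lie outside its canonical transcript and were not searched. Of 20832 canonical 3′UTRs searched, 2926 (14%) held the letters, and among those of a length like that of Dag1 the share was 22.4%. The Dag1 match starts 2480 bases into the 3′UTR, is not followed by an A, and lies inside the segment that carried most Dag1 counts. A match of letters is a description and not a functional site.

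Of the 8 members, 6 had counts and passed the filter on low counts. Dmd, Utrn and Sgcd were lower in ASO than in CTRL, whereas Dag1, Sgcb and Dtna did not pass the threshold in either direction. Over all 7813 genes tested, 17.4% were lower and 11.8% were higher in ASO (edgeR, adjusted p under 0.05). The log2 fold changes had their median at -0.03 over all these genes and at -0.91 over the 6 members. The latter falls between Dmd, Utrn and Sgcd (-2.13 to -1.98) and Dag1, Dtna and Sgcb (0.16 to 0.40), and no member lies near it. Sgca and Sspn could not be measured by this counting, as described beside the other sarcoglycans. In whole muscle, fewer cells of a type and less RNA per cell cannot be told apart.

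**Figure D1:**
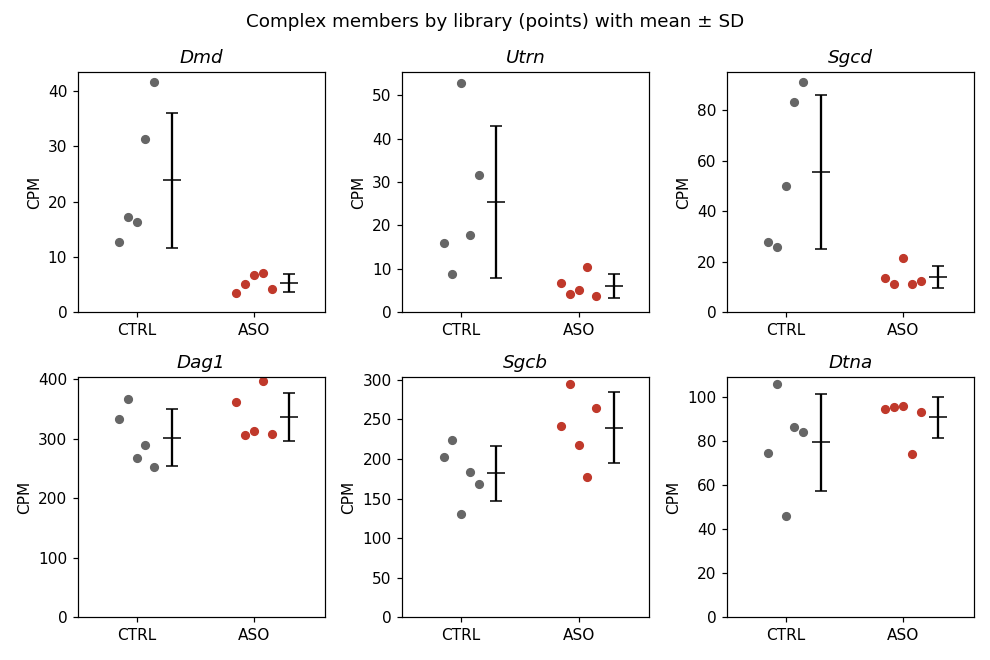
Levels of the 6 measured members in CPM (counts scaled to library size, vertical axes from 0) in 5 CTRL (grey) and 5 ASO (red) libraries. Each point is 1 library and the bars give the mean and SD. The groups did not overlap for Dmd and Sgcd, and they overlapped for Utrn, Dag1, Sgcb and Dtna. Here and below, the share of all tested genes or segments without overlap was not counted. Such separation is therefore not read as particular to a gene.

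Dmd encodes dystrophin, the actin-binding protein that gives the complex its name. Its counts in CTRL replicates 1 to 5 were 27, 37, 33, 53 and 74, and those in ASO replicates 1 to 5 were 7, 12, 16, 17 and 9. In CPM, the count scaled to a common library size by TMM, this corresponded to 12.7, 17.3, 16.3, 31.3 and 41.6 in CTRL and to 3.38, 5.1, 6.77, 7.1 and 4.24 in ASO. Every ASO library was below every CTRL library, and CTRL replicates 4 and 5 were the highest. The mean level was 23.8 ± 12.2 CPM in CTRL and 5.32 ± 1.6 CPM in ASO (SD, n = 5 each). The fitted log2 fold change, -2.13, had a standard error (SE) of 0.36, and its adjusted p was 0.0014 in edgeR's quasi-likelihood test. The exact two-sided permutation test over all labellings of the 10 libraries gave p = 0.0079, the smallest value this design allows.

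Utrn encodes utrophin, which binds the same partners as dystrophin. Its levels were 16, 8.86, 52.9, 17.7 and 31.5 CPM in CTRL replicates 1 to 5 and 6.76, 4.25, 5.08, 10.4 and 3.77 CPM in ASO. The groups overlapped, since ASO replicate 4 lay above CTRL replicate 2, and CTRL replicate 3 was far above the rest. The mean fell from 25.4 ± 17.4 to 6.06 ± 2.7 CPM (SD, n = 5 each). In the fit, Utrn had a log2 fold change of -2.05 (SE 0.46, adjusted p = 0.0063 in edgeR). The exact two-sided permutation test gave p = 0.016. Without CTRL replicate 3 the log2 fold change was -1.59, and over the fits that each left out 1 library the highest adjusted p was 0.021 in edgeR. The same CTRL library was the highest in the summed levels of the adipocyte list (13353 CPM, against 846 to 2334 CPM in the other CTRL libraries) and of the macrophage list (1185 CPM), and the part of these cells in the Utrn level was not tested.

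Among the sarcoglycans, Sgcd (δ-sarcoglycan) was lower in ASO. It measured 27.8, 25.6, 49.9, 83.2 and 91 CPM in CTRL replicates 1 to 5 and 13.5, 11, 21.6, 11.3 and 12.3 CPM in ASO. No ASO library reached the lowest CTRL library, although ASO replicate 3 came close to it, and CTRL replicates 4 and 5 were again the highest. The mean was 55.5 ± 30.5 CPM in CTRL and 13.9 ± 4.38 CPM in ASO (SD, n = 5 each). The log2 fold change was -1.98 with an SE of 0.37 and an adjusted p of 0.0023 in edgeR, and the exact permutation p was 0.0079.

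Sgcb (β-sarcoglycan), which forms a tight core with δ-sarcoglycan, did not show this pattern. Its levels were 202, 224, 131, 183 and 168 CPM in CTRL and 242, 295, 218, 177 and 264 CPM in ASO. The ASO libraries lay higher on average but the groups overlapped, with a mean of 182 ± 35.2 against 239 ± 45 CPM (SD, n = 5 each). The log2 fold change of 0.40 had an SE of 0.18 and an adjusted p of 0.11 in edgeR, and the exact permutation p was 0.063. Only without ASO replicate 4 did Sgcb pass the threshold among the 10 fits that each left out 1 library, at a log2 fold change of 0.51 (adjusted p = 0.045 in edgeR).

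Sgca (α-sarcoglycan) had 0 counts in all 10 libraries, although it is a fiber gene. The table holds 4 segments for it that lie on top of each other, and at most 6 bp of any of them belong to 1 segment alone. Sspn (sarcospan) also had 0 counts in all 10 libraries, and its 3 segments are identical, with 0 bp of their own. Read pairs that meet several segments at once are left uncounted under the featureCounts default, so the zeros are no measurement of these genes. For a gene with segments of its own, 0 counts would allow up to 3 counts, which corresponds to 1.14 to 1.87 CPM over the 10 libraries and covers counting error only.

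Dag1 encodes dystroglycan, the laminin receptor of the complex and the member with the seed match. Its counts were 706, 787, 541, 489 and 448 in CTRL and 748, 721, 738, 948 and 651 in ASO. Scaled to library size, CTRL replicate 5 was the lowest and ASO replicate 4 the highest with 396 CPM. The groups overlapped, and the means were 301 ± 47.7 and 336 ± 40.3 CPM (SD, n = 5 each). The log2 fold change of 0.16 (SE 0.14) did not pass the threshold, with an adjusted p of 0.44 in edgeR and an exact permutation p of 0.25, and its sign turned with the scaling, to -0.01 with total counts. Dtna encodes α-dystrobrevin and measured 74.5, 106, 46, 86.2 and 84.3 CPM in CTRL and 94.6, 95.6, 96, 74.3 and 93.4 CPM in ASO. The ASO libraries other than replicate 4 lay close together inside the CTRL range. The log2 fold change of Dtna was 0.19 (SE 0.19, adjusted p = 0.48 in edgeR, exact permutation p = 0.37).

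The count of a gene rests on the segments on which its reads were counted, so each member was also examined segment by segment, with coordinates on GRCm39. Of Dmd counts, 92.3% fell on a segment of 16 bp named for transcript Dmd-202, at chrX:84246089-84246104 on the plus strand. This segment starts at the first base after the stop codon, in exon 79 of the canonical transcript Dmd-203, and lies 3643 bp upstream of the transcript end. The last 500 bp of Dmd, which are listed for both Dmd-203 and Dmd-215, had 0 counts, and these 2 segments are identical. The 16 bp segment had 24, 33, 33, 49 and 73 counts in CTRL and 2, 12, 14, 15 and 8 in ASO, and its log2 fold change was -2.28 (SE 0.45, adjusted p = 0.0015 in edgeR over all segments tested). The Dmd-201 segment, 1102 bp upstream, held only 12 counts in CTRL and 10 in ASO. The Dmd result was thus a measurement of the beginning of the 3′UTR and not of its end.

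The Utrn counts were mostly (92.1%) on the 500 bp Utrn-205 segment at chr10:12259124-12259623 on the minus strand, in exon 75, and 1192 bp upstream of the most distal Utrn segment. It had 33, 19, 98, 29 and 44 counts in CTRL and 13, 10, 11, 25 and 8 in ASO (log2 fold change -1.91, SE 0.45, adjusted p = 0.0045 in edgeR). The 2 more distal Utrn segments share all but 2 bp and had 0 counts, and the Utrn-210 segment in exon 7 had 23 counts in CTRL and 2 in ASO. All 676 counts of Sgcd were on the Sgcd-201 segment at chr11:46869612-46870089 on the minus strand, which is the entire 478 bp 3′UTR of the canonical transcript in exon 8. That segment is the end of its own transcript, but it lies 82532 bp upstream of the Sgcd-202 segment, which had 0 counts over 500 bp of its own. Its log2 fold change was -1.94 (SE 0.37, adjusted p = 0.0014 in edgeR).

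Dag1 was counted on several stretches of the same 3′UTR in exon 4. Its last 500 bp, at chr9:108081833-108082332 on the minus strand, held 97% of its counts and had a log2 fold change of 0.26 (SE 0.16, adjusted p = 0.19 in edgeR). The main upstream segment of Dag1 lies 1310 bp from that end and has 11 bp of its own. Its counts were 21, 28, 18, 34 and 25 in CTRL and 14, 9, 4, 4 and 6 in ASO, so that the groups did not overlap. The log2 fold change there was -1.93 with an SE of 0.38 and an adjusted p of 0.0016 in edgeR. Another upstream Dag1 segment, 3 bp of which are its own, had 30 counts in CTRL and 8 in ASO. The difference between the last 500 bp and the upstream stretches of Dag1 was not itself tested.

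The Sgcb counts all came from the last 500 bp of its 3′UTR in exon 6, at chr5:73790092-73790591 on the minus strand, where the log2 fold change was 0.44 (SE 0.18, adjusted p = 0.063 in edgeR). Apart from 1 count, Dtna was counted on 3 segments at alternative ends on chromosome 18, all annotated outside the exons of its canonical transcript. The Dtna-209 segment (44.2% of the counts) overlaps an exon of the long non-coding RNA Gm58564 on the other strand, and since the strand setting of the counting is not given in the sources used here, its reads may belong to either. Its log2 fold change was 0.34 (SE 0.28), that of Dtna-206 was 0.25 (SE 0.32) and that of Dtna-201 was 0.12 (SE 0.24), with adjusted p of 0.34, 0.57 and 0.72 in edgeR.

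Per 100 bp of a segment's own bases, the highest mean level in CTRL was that of the distal Dag1 segment with 56.6 CPM. The Sgcb-201 segment followed with 36 CPM, then Dtna-201 with 14.9 CPM, Sgcd-201 with 11.6 CPM, Dtna-209 with 10.5 CPM, Utrn-205 with 4.57 CPM, Dtna-206 with 2.03 CPM and Utrn-210 with 0.491 CPM. In ASO the order was Dag1 with 68 CPM, Sgcb with 48.8 CPM, Dtna-201 with 16.1 CPM, Dtna-209 with 13.3 CPM, Sgcd-201 with 2.99 CPM, Dtna-206 with 2.41 CPM, Utrn-205 with 1.2 CPM and Utrn-210 with 0.0372 CPM. The libraries of Dtna-201 and Sgcd-201 overlapped in CTRL, where Dtna-201 had 18.8 to 45.2 CPM and Sgcd-201 had 25.2 to 91.5 CPM over segments of 236 and 478 bp. Before division by length, the CTRL mean of Sgcd-201 (55.4 CPM) was above that of Dtna-201 (35.2 CPM), so their order depends on this division. These values compare stretches of different lengths at different distances from the transcript end and are not levels of whole transcripts.

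**Figure D2:**
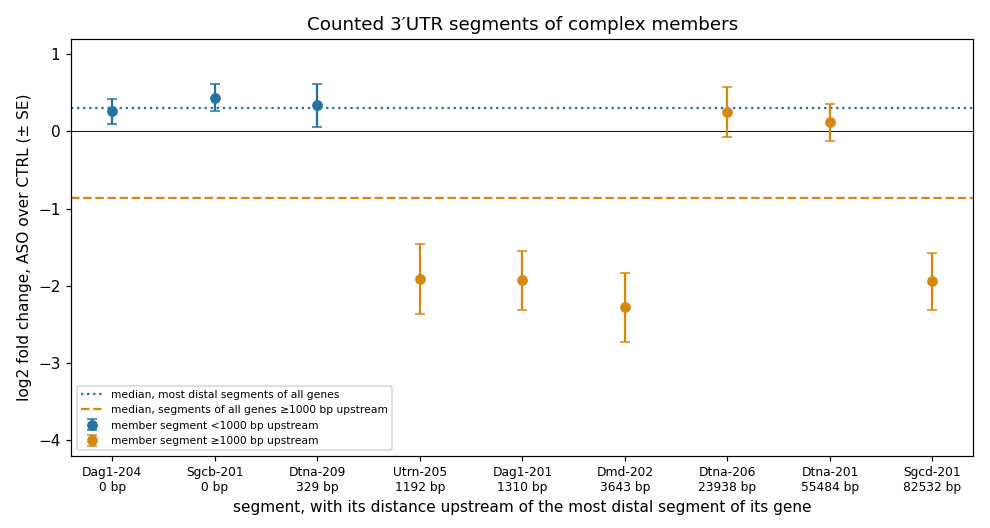
log2 fold change (ASO over CTRL, ± SE) of the 9 tested segments of members, ordered by the distance in bp upstream of the most distal segment of the same gene. The dotted line is the median of the most distal segments of all genes (0.30) and the dashed line that of all segments at least 1000 bp upstream (-0.86), and the segments of Utrn, Dmd and Sgcd and the upstream segment of Dag1 lie below the dashed line.

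Position within the gene went along with the direction among the members and in the whole table. Of the 9 member segments tested, 4 were lower, and all 4 lay at least 1000 bp upstream of the most distal segment of their gene, as did Dtna-206 and Dtna-201, which did not pass the threshold. Over all 10658 segments tested, 24.7% were lower in ASO. Among the 5060 that were the most distal of their gene, 4.37% were lower, with a median log2 fold change of 0.30. Among the 3737 at least 1000 bp upstream, 53.7% were lower, with a median of -0.86. Of those, 2854 lie within 50 bp of the end of their own transcript, as Sgcd-201 does, and 53.7% of these were lower as well. These classes of distance were set after the data were seen. The 4 of 6 upstream member segments that were lower are to be read against that share, and lower counts on such a segment were common in the whole table.

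When only the segments at least 1000 bp upstream were fitted and scaled among themselves, which was also chosen after seeing the data, 30.0% of 3698 were lower and 27.2% were higher. On that scale Dmd-202 had a log2 fold change of -1.42 (SE 0.39), Utrn-205 of -1.10 (SE 0.40), Sgcd-201 of -1.07 (SE 0.31) and the upstream segment of Dag1 of -1.16 (SE 0.36). Their adjusted p were 0.0048, 0.027, 0.008 and 0.01 in edgeR, and the median log2 fold change of these upstream segments was -0.05. The same counts had already given these 4 segments as lower, so this was no independent test. Dtna-201 and Dtna-206 were higher on it, with log2 fold changes of 0.90 (SE 0.27) and 1.01 (SE 0.33) and adjusted p of 0.0093 and 0.015 in edgeR. Both Dtna segments had positive log2 fold changes in the whole table too, where they did not pass the threshold.

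The libraries also differed in how many of their counts lay upstream. With the members left out, segments at least 1000 bp upstream held 23%, 22.8%, 25.4%, 27.3% and 29.7% of the counts in CTRL replicates 1 to 5 and 17.6%, 18.3%, 14.9%, 16.6% and 16.6% in ASO. The groups did not overlap in this share, and CTRL replicates 4 and 5, the highest in it, were also the highest in Dmd and Sgcd. Utrn was highest in CTRL replicate 3, which had the third highest share. The part of this shift in the lower counts of Dmd, Utrn and Sgcd was not tested, and within these libraries it cannot be told apart from the treatment. The most distal segments of Dmd and Utrn have at most 2 bp of their own and were not measured, and that of Sgcd had 0 counts in all 10 libraries.

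**Figure D3:**
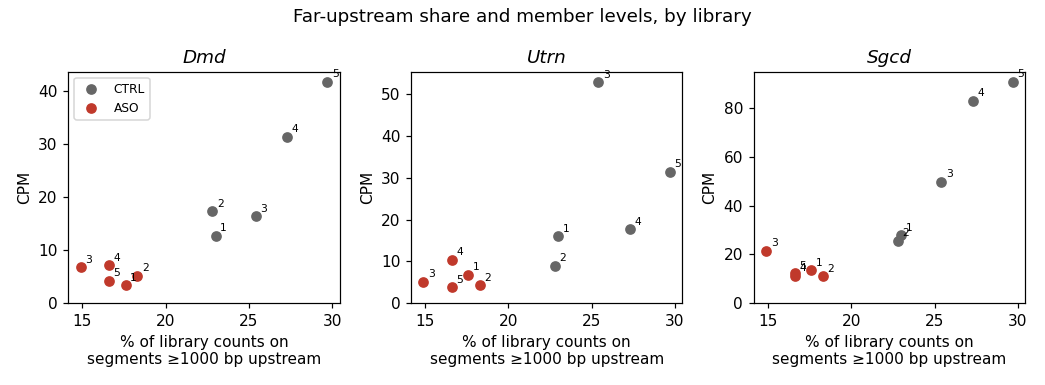
Level of Dmd, Utrn and Sgcd in CPM (vertical axes) against the percent of the counts of each library on segments at least 1000 bp upstream (horizontal axes, members left out), with replicate numbers beside the points. The 5 ASO libraries (red) lie between 14.9% and 18.3% and the 5 CTRL libraries (grey) between 22.8% and 29.7%.

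The share of the counts of a member on its leading segment was compared for the 3 members with several counted segments. For Dmd it was 93.8 ± 5.22% in CTRL and 78.6 ± 28.5% in ASO (SD, n = 5 each), and ASO differed from CTRL by -15.2 percentage points (exact permutation p = 0.2). The spread in ASO came mostly from replicate 1, which had 2 of 7 counts on the 16 bp segment. The differences were 4.13 points for Utrn (exact permutation p = 0.44) and 3.49 points for Dtna (exact permutation p = 0.6), and all 3 adjusted p were 0.6 by this permutation test.

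The other subunits, partners and ligands of the complex were read from a list of 20 genes, of which 13 were tested, with 4 lower and 1 higher at a median log2 fold change of -0.27. Over all genes tested, 17.4% were lower and 11.8% were higher. Sgce (ε-sarcoglycan, a relative of α-sarcoglycan) went from 10.2 ± 5.76 to 3.02 ± 1.06 CPM (log2 fold change -1.73, SE 0.41, adjusted p = 0.0085 in edgeR, SD over n = 5 each). Ank2 (ankyrin-B, which holds dystrophin and dystroglycan at costameres) fell by 1.24 on the log2 scale (SE 0.21, adjusted p = 0.0012 in edgeR). Dtnbp1 (dysbindin, a binding partner of dystrobrevins) fell by 1.10 (SE 0.20) and Sntb2 (β2-syntrophin) fell by 1.13 (SE 0.36), with adjusted p of 0.0021 and 0.034 in edgeR. Cav3 (caveolin-3, which binds β-dystroglycan at the fiber membrane) rose from 179 ± 38.9 to 418 ± 48.2 CPM without overlap (log2 fold change 1.22, SE 0.17, adjusted p = 4.4e-04 in edgeR). Mlip, Plec, Sgcz, Sntg1 and Sntg2 had 0 counts in all libraries.

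The enzymes that build the laminin-binding glycan of α-dystroglycan and its sugar donors formed a list of 19 genes, of which 11 were tested, with 2 lower and 0 higher and a median log2 fold change of -0.21. The 2 of 11 stand beside the 17.4% of all genes that were lower and are near that share. B3galnt2, which extends the core glycan with N-acetylgalactosamine, fell by 0.81 (SE 0.25, adjusted p = 0.028 in edgeR). The 9 genes that did not pass the threshold lay between -0.64 and 0.34.

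The integrin linkage, the other laminin-binding connection of the fiber membrane, was read from 14 genes, of which 10 were tested, with 3 higher and 2 lower and a median log2 fold change of 0.18. The shares over all genes were 11.8% higher and 17.4% lower. The talins and vinculin, which connect integrins to actin, were the higher ones, with log2 fold changes of 0.82 for Tln2 (SE 0.17), 0.64 for Tln1 (SE 0.20) and 0.60 for Vcl (SE 0.20), and adjusted p of 0.0037, 0.027 and 0.04 in edgeR. Only 1 gene of the list was higher with total counts or without CTRL replicate 1 or 5. Parva, which also binds actin, had -0.36 (SE 0.35, adjusted p = 0.46 in edgeR). Lims1 (PINCH-1) fell by 3.43 (SE 0.38) and its partner Ilk, the integrin-linked kinase, by 0.80 (SE 0.21), with adjusted p of 1.4e-04 and 0.014 in edgeR.

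**Figure D4:**
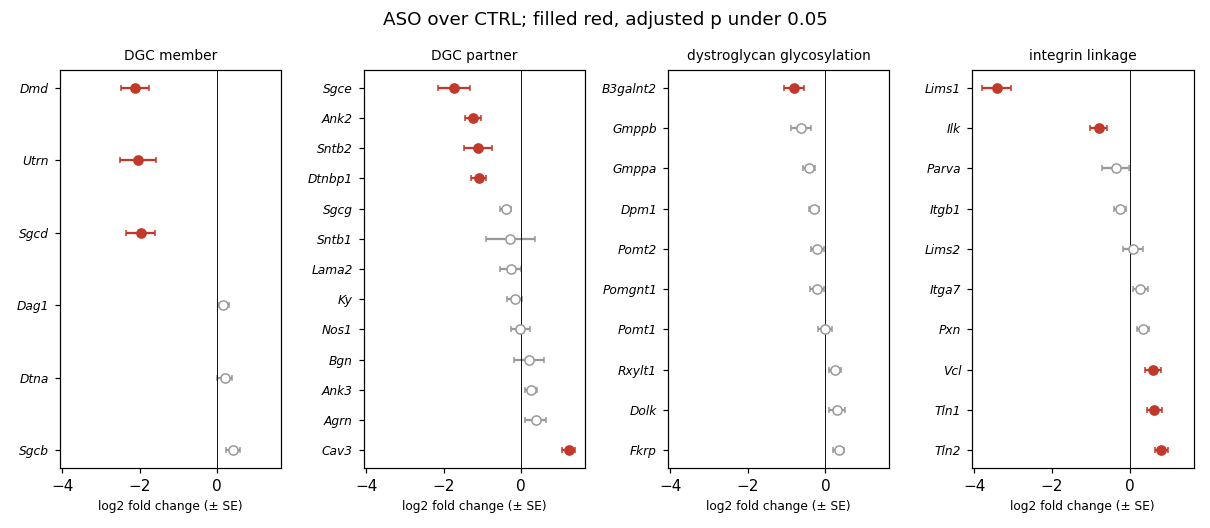
log2 fold change (ASO over CTRL, ± SE, horizontal axes) of tested genes of the complex and of the 3 lists around it, except 1 gene that is not reported here. Filled red points passed the threshold of 0.05 and open grey points did not, and the lower genes outnumber the higher in all panels except that of the integrin linkage.

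Position was recorded for these lists as well. Of the 8 genes of the 3 lists that were lower, 6 had the largest share of their counts on a segment at least 1000 bp upstream. The exceptions were Sntb2 (most distal segment) and Ilk (911 bp upstream). All 4 that were higher (Cav3, Tln1, Tln2 and Vcl) were counted mostly on their most distal segment. In the whole table such upstream segments led 53.8% of the lower genes, 10% of the higher genes and 24.1% of all genes tested. The part of the position in these calls was not tested.

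Markers of the cell types in the tissue were read beside these results. The summed level of the 7 muscle fiber markers was 39620 to 77967 CPM in CTRL and 83165 to 124065 CPM in ASO, without overlap, and 2 of its 4 tested genes were higher, namely Ckm (log2 fold change 0.93) and Mybpc2 (1.54), with adjusted p of 0.011 and 0.0025 in edgeR. Mb and Tnnt3 had 0 counts in all libraries. The neuromuscular junction list, where utrophin resides, was also higher in sum, with 82.5 to 138 CPM in CTRL and 193 to 289 CPM in ASO. Most of that sum was Chrnb1, the 1 of its 3 tested genes that was higher (77.5 ± 22.2 against 185 ± 41.6 CPM, SD, n = 5 each, adjusted p = 0.0011 in edgeR). Lrp4 and Dok7 did not pass the threshold, with log2 fold changes of 0.14 and 0.73 (adjusted p = 0.68 and 0.14 in edgeR). Chrnd, Chrne and Rapsn had 0 counts. The fibroblast list had 374 to 1681 CPM in CTRL and 140 to 613 CPM in ASO (1 of 4 tested lower, Lum, with Dcn at 0). Its log2 fold changes ran from -1.72 for Lum to 0.36 for Col1a1. The macrophage list had 193 to 1185 CPM in CTRL and 56.1 to 453 CPM in ASO (1 of 4 tested lower, Mrc1, with Adgre1 at 0). Here the log2 fold changes ran from -1.51 for Mrc1 to 0.26 for Cd68.

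The endothelial list (194 to 345 against 176 to 405 CPM, 6 tested), the adipocyte list (846 to 13353 against 719 to 3715 CPM, 5 tested) and the Schwann cell list (75.9 to 157 against 35.7 to 526 CPM, 3 tested) each had 0 genes past the threshold. In the smooth muscle list (65.8 to 184 against 102 to 336 CPM) Acta2 was the 1 of 3 tested genes that was higher, by 0.96. The part of cell composition in the levels of the members was not tested.

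The genes whose levels were most like those of a member were named from Pearson's r of log2(CPM + 1) over the 10 libraries, as a description, since both groups enter each value. Nearest to Dmd were Arid1a (r = 0.993), Tsc1 (0.978) and Cul5 (0.977), and Sgcd had 0.94 as the gene of rank 54. Nearest to Utrn were Pdia3 (0.979), Ptbp1 (0.977) and Igfbp4 (0.976). Nearest to Dag1 were Mcts1 (0.916), Olfml2a (0.860) and Krt222 (0.858). The libraries share their depth and their upstream share by group, so these values are not independent of the treatment.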

How the data were processed

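The authors used fastp for trimming, STAR with GRCm39 for alignment and featureCounts with Gencode M25 for counting read pairs. What they deposited are raw counts on 3′UTR segments of at most 500 bp. The strand setting is not given in the sources used here. The table has 52423 segments, of which 52361 were mapped to genes with GENCODE M39. The 62 others hold 0.0197% of the counts and were left out, as were 4 per-sample columns that match no sample. The members and lists were chosen with earlier results of these data known.

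Segments were summed per gene. Genes and single segments were fitted over the whole table with edgeR 4.0.16 in R 4.3.3 (TMM, filter on low counts by group, quasi-likelihood test, Benjamini-Hochberg adjustment, threshold 0.05). The study used DESeq2, which was an alternative here (version 1.42.0), as was limma-voom (limma 3.58.1). Other alternatives were RLE, total count and upper quartile scaling, no filter on low counts, the replicate number as a block, leaving out each library, the most distal counted segment of each gene, segments of at least 200 bp and libraries drawn down to 1606909 counts. The fits were tested on simulated data. The spread between simulated libraries was set in advance and not taken from these libraries, so this checked the code only. Single values were compared by two-sided exact permutation of all labellings. No replicate pair agreed within counting noise, so each library counted once.

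The text names all 8 members, up to 6 genes past the threshold of each of the 3 other lists, at most 2 of each cell type list, and the 3 genes most correlated with Dmd, Utrn and Dag1. Genes at 0 counts, some list genes that did not pass the threshold and the other segments were named in addition. Some list genes are counted but not reported here by name. Sequences came from RefSeq (miRNA) and the GRCm39 genome with 1-based coordinates. Python 3.11.15 with pandas 2.3.3 and scipy 1.17.1 was used otherwise.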

Additional observations from a re-analysis of the deposited data

Results flagged for a closer look

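Among 26 groups of 5 libraries examined, 2 held a library whose distance to the nearest other library, divided by the range of the group, exceeded the critical value of 0.71. Chance alone gives about 1 such group in 20. In ASO replicate 3, Sgcd was at 21.6 CPM, while the next highest ASO library had 13.5 CPM (gap over range 0.765). In ASO replicate 4, Dtna was at 74.3 CPM, below the next lowest ASO library with 93.4 CPM (gap over range 0.879).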

How the results depend on the processing

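Dmd, Utrn and Sgcd remained lower past the threshold in every fit that gave them a value. Leaving out 1 library gave log2 fold changes between -2.29 and -1.84 for Dmd, between -2.33 and -1.59 for Utrn and between -2.16 and -1.73 for Sgcd, and the other alternatives gave -2.33 to -1.97, -2.25 to -1.84 and -2.24 to -1.80. Dmd had no value for the most distal counted segment or for segments of at least 200 bp, and Dtna had none for the former. For Utrn and Sgcd the most distal counted segments were Utrn-205 and Sgcd-201, the upstream segments that led the main fit. That fit was therefore no test of position for these genes. Dag1 changed sign without passing the threshold, to -0.01 with total counts and to -0.0014 on the most distal counted segment alone. In the fits of genes, Dtna and Sgcb kept their sign and did not pass the threshold, except that Sgcb did without ASO replicate 4 (0.51). The fits of segments were less stable for higher calls. With RLE or upper quartile scaling, or without CTRL replicate 2, ASO replicate 3 or ASO replicate 4, 1 member segment was higher. In the main fit of segments 0 were higher. Dtna-201 and Dtna-206 were higher when upstream segments were scaled among themselves. Total counts moved the median of all genes to -0.21, and higher genes then made up 22.5% of those past the threshold against 40.3% with TMM and 51.1% with upper quartile scaling.

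The number of genes past the threshold was 2283 and fell to 990 (388 higher, 602 lower) on the most distal counted segment. On that segment, 2 of the partner genes, 1 of the glycosylation genes and 3 of the integrin genes passed. With total counts, 5 glycosylation and 3 integrin genes passed. With 1 library left out, 1 to 3 glycosylation genes and 3 to 5 integrin genes passed, the former being 3 when ASO replicate 1 or 4 was omitted and 1 when CTRL replicate 2, 4 or 5, or when ASO replicate 3 or 5, was omitted, and the latter 3 when CTRL replicate 1 or 5 was. The Dmd share on its leading segment differed by between -20.5 and -2.68 points with 1 library left out. It was -2.68 without ASO replicate 1 and -20.5 without ASO replicate 2 (adjusted p = 0.048, exact permutation test), the only library whose omission took it past the threshold. Leaving out CTRL replicate 3 and ASO replicate 4 together, the libraries farthest from the others of their groups (chosen after seeing the data), left 3 members lower.

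With the replicate number as a block, 1834 genes passed (662 higher, 1172 lower) and 3 members were lower, with no member call changed. Libraries of the same number correlated between -0.43 and 0.16 in their deviations from the group means, and 1 of 5 CTRL libraries was closest to its own number, so the numbers were not taken to pair the mice. The low counts of Dmd (7 to 17 per ASO library) limit its precision, and counts on overlapping segments were lost for Sgca and Sspn.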
